A study of Mus musculus with 12 samples.

Results

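The genes of the insulin signalling and FOXO pathway were followed in the liver of mice on 4 diets. They were Insr, Irs1, Irs2, Pik3r1, Akt2, Foxo1, Foxo3, Igfbp1 and Igfbp2, chosen by name with earlier results of these data known. Every probe whose RefSeq accession mapped to 1 of these 9 symbols was taken. This gave 16 of the 39429 probes of the array, of which 27502 carried a gene symbol. Insr and Akt2 had 3 probes each, Irs1, Foxo1 and Igfbp2 had 2 each, and Irs2, Pik3r1, Foxo3 and Igfbp1 had 1 each. All 16 probes were well above background on all 12 arrays, so no gene was lost to a filter on low signal.

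Insulin binds its receptor on the hepatocyte, the receptor phosphorylates the insulin receptor substrates, and these recruit phosphoinositide 3-kinase, which leads to activation of AKT. AKT phosphorylates the FOXO transcription factors and keeps them out of the nucleus. When insulin is low, FOXO factors enter the nucleus and switch on genes of the fasted liver, among them Irs2, Igfbp1 and the genes of glucose production. Much of this signalling runs through phosphorylation, which an RNA measurement does not see.

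The study used female C57BL/6N mice on a diet the labels call NFD, with 3 mice per group measured on 1-colour oligonucleotide arrays after 6 months. Control mice (Ctrl) took their carbohydrate from corn starch and sucrose, and resveratrol mice (RS) received that diet with resveratrol added. Dongjin mice (DJ) had Dongjin rice in place of the starch and sucrose, and DJ526 mice had the rice DJ526, a transgenic Dongjin line that makes resveratrol in its grain through a transferred peanut stilbene synthase gene. The mice were 6 weeks old when purchased. The methods speak both of mice divided at random and of cages assigned at random to the diets, and which mice shared a cage, or when they had last eaten, is not given in the sources used here. DJ526 differs from DJ in the transferred gene as well as in resveratrol, and the resveratrol of RS was an additive while that of DJ526 came with the rice, so DJ526 against DJ and RS against Ctrl are not the same contrast. Because the samples are bulk liver RNA, fewer cells of a type and less RNA per cell cannot be told apart.

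The share of spots well above background was 73.0% to 80.8% per array and 0 spots were saturated. The 6 hepatocyte markers with a probe, among them Alb, Ttr and Cyp2e1, were well above background on all 12 arrays. Their summed signal spanned 10.72 to 10.97 on the log2 scale. Markers of other cell types, such as the 4 of pancreas, were also well above background on all 12 arrays. No other marker set summed above 7.09, so by level the arrays carried the labelled tissue. Array barcodes place the arrays on 3 slides of 4. The first held Ctrl 1, 2 and 3 with DJ 1, the second DJ 2 and 3 with RS 1 and 2, and the third RS 3 with DJ526 1, 2 and 3. Diet and slide therefore overlap heavily, and values with the slide as a block are given beside most of the differences. DJ 1 is the only mouse on another diet that shares a slide with Ctrl, so each blocked difference from Ctrl passes through it. A sample sheet among the study's supplementary files gives RS the array identifiers that the labels give DJ, and the reverse. The labels were followed here, and if that sheet were right every RS value would be a DJ value and the reverse, while DJ526 against Ctrl would not move.

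Since FOXO factors act on some genes of their own pathway, promoters were searched for forkhead-type motifs. RefSeq windows (build GRCm38.p6) were found for 8 of the 9 genes, not for Insr, and the 250 bases before the start of transcription were searched on both strands for the forkhead core GTAAACA and the core of the insulin response element CAAAACA, and no match overlapped another. Across all 32851 windows of the table, 3.17% held the first and 5.56% the second. Of the 13 windows of the 8 genes, 3 held a match, all to CAAAACA, and none held GTAAACA. Igfbp2, the gene with the most regular difference from Ctrl, had 2 windows, neither with a match. The 4 sequences printed are the 3 with a match, that is Irs1, Irs2 and Igfbp1, and the first Igfbp2 window. They run 5′ to 3′ on the strand of the gene, with matches in capitals (TGTTTTG is the reverse strand of CAAAACA).
Irs1, chr1:82291440-82291689, - strand: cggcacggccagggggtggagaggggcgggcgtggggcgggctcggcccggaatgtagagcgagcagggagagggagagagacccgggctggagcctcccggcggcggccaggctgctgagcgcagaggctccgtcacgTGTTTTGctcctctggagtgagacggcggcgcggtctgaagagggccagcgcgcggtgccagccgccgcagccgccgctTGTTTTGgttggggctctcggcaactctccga
Irs2, chr8:11008930-11009179, - strand: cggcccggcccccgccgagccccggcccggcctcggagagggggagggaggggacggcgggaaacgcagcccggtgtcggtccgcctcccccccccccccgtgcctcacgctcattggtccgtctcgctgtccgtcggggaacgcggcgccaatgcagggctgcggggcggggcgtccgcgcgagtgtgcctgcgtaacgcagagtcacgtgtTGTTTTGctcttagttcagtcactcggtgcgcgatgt
Igfbp1, chr11:7197537-7197786, + strand: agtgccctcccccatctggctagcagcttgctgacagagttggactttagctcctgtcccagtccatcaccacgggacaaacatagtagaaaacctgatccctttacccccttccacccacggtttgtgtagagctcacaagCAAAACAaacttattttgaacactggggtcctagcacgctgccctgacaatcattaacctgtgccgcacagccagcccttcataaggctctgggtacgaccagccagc
Igfbp2, chr1:72824230-72824479, + strand: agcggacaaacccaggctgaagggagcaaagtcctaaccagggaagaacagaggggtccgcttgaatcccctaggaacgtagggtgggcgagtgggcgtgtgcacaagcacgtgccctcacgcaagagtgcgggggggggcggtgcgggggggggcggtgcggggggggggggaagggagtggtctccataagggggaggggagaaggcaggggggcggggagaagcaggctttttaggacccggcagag
Counted back from the start, the match of Igfbp1 lay at bases -108 to -102, that of Irs2 at -37 to -31, and those of Irs1 at -111 to -105 and -32 to -26. A match is a description of the letters and not evidence of binding, and a window without one says nothing about FOXO.

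Levels below are log2 of the processed signal of a probe minus log2 of the 75th percentile of its array, so that 0 is a signal at that percentile. Differences are log2 fold changes between group means with the standard error (SE) of a limma fit over all 12 arrays, and a probe passed the test at a Benjamini-Hochberg adjusted p under 0.05 over all 39429 probes. The brightest probe stands for a gene unless another is named. With the slide as a block the median of all probes was itself -0.12 in DJ526 against Ctrl. It was -0.10 in DJ526 against DJ and -0.10 in DJ526 against RS, so blocked DJ526 values are to be read beside these medians.

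None of the 16 probes passed the test in RS, DJ or DJ526 against Ctrl. The background was 0.00% of all probes passing in RS, 0.00% in DJ and 0.00507% in DJ526, so the test called almost nothing on these arrays. At an unadjusted limma p under 0.05, 2 of the 16 probes differed in RS against Ctrl, where 6.00% of all probes did (1.96% in the lower direction). In DJ against Ctrl 2 of the 16 did, where the background was 5.22% (2.55% lower). In DJ526 against Ctrl 5 of the 16 did, where the background was 10.8% (6.49% higher and 4.31% lower). The 2 probes in RS and the 2 in DJ were both Igfbp2 probes, lower than Ctrl, and the 5 in DJ526 were the same Igfbp2 probes, lower, with 1 Insr probe, 1 Foxo1 probe and Foxo3, higher. The counts at that unadjusted threshold became 0, 2 and 0 in RS, DJ and DJ526 with the slide as a block, the 2 again of Igfbp2. The methods' t-test counted 0, 2 and 5 probes at that threshold and 0 in each comparison after adjustment. For neither the block nor this t-test is the share of all probes given here, so those counts have no background beside them. The 3 comparisons share the Ctrl mice, so their shifts are not independent of each other.

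**Figure D1:**
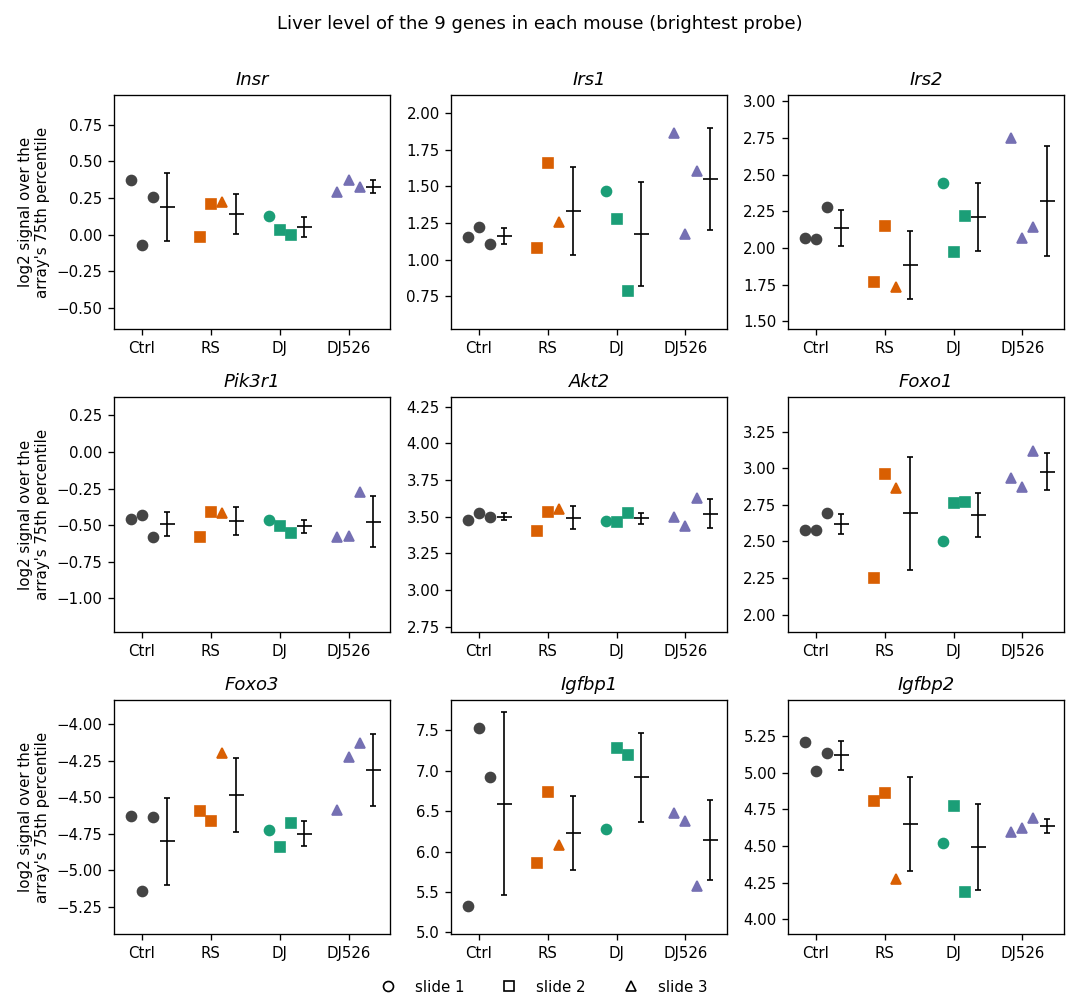
Level of the 9 genes in each of the 12 mice, on the vertical axis as log2 signal over the 75th percentile of the array and on the horizontal axis by diet. Points are mice with the marker giving the slide, bars are mean ± SD of 3 mice, and all panels span the same range except Igfbp1, which needed a wider one. Every RS, DJ and DJ526 point of Igfbp2 lies under the lowest Ctrl point at 5.01, while Igfbp1 runs from 5.33 to 7.53 within Ctrl alone.

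Igfbp2, which encodes a secreted protein that binds insulin-like growth factors, was lower in all 9 mice on the other diets than in any Ctrl mouse. Its levels were 5.21, 5.01 and 5.13 in Ctrl, 4.80, 4.86 and 4.28 in RS, 4.52, 4.77 and 4.18 in DJ, and 4.60, 4.62 and 4.69 in DJ526. The Ctrl mice lay close together (SD 0.0993) and so did the DJ526 mice (SD 0.0475), whereas RS 3 and DJ 3 lay far below the other mice of their groups. The second probe gave 4.62, 4.40 and 4.44 in Ctrl, 4.21, 4.23 and 3.59 in RS, 4.02, 4.20 and 3.56 in DJ, and 3.89, 4.04 and 4.03 in DJ526, again with no overlap with Ctrl. Of 39361 probes with a value on every array, 215 (0.546%) had all 9 arrays below the 3 Ctrl arrays, and among the 16 probes here the 2 of Igfbp2 did.

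The difference in RS was -0.47 (SE 0.164, 0.721-fold, unadjusted limma p 0.0148, adjusted p 0.691). The difference in DJ was -0.63 (0.648-fold, unadjusted limma p 0.00279, adjusted p 0.750), and that in DJ526 was -0.48 (0.715-fold, unadjusted limma p 0.0131, adjusted p 0.330). In order of mean level the groups ran Ctrl, RS, DJ526 and DJ, and the 3 lower groups overlapped, with a difference between DJ526 and DJ of 0.14 (95% interval -0.22 to 0.50), which was -0.01 without DJ 3 and 0.71 with the slide as a block (adjusted p 0.586). By the Z ratio criterion of the methods (a Z ratio beyond 1.5 with an unadjusted p under 0.05), Igfbp2 in DJ was the only call among the 16 probes over the 5 pairwise comparisons, with a Z ratio of -1.83, where 1.36% of all probes were called. In RS against Ctrl, DJ526 against Ctrl, DJ526 against DJ and DJ526 against RS the criterion called 0 of the 16, and 1.69%, 3.87%, 3.79% and 2.04% of all probes.

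The slide of an array moved with part of this result. With the slide as a block the DJ difference was -0.60 (adjusted p 0.346), close to its value without the block, while the RS difference shrank to -0.25 and that of DJ526 turned to 0.11. Within the first slide DJ 1 lay 0.60 below the mean of the Ctrl mice, and the DJ value with the block rests on that mouse. Within the second slide DJ was 0.35 below RS, and within the third DJ526 was 0.36 above RS 3. RS 3, on the third slide, lay 0.55 below RS 1 and 2, and without it the RS difference was -0.29. No DJ526 mouse shares a slide with a Ctrl mouse, so its value with the block is reached only through the RS and DJ mice that bridge the slides. The summed signal of the 4 adipocyte markers was also lower in DJ526 than in Ctrl, at 0.636 to 0.902 against 1.09 to 1.89. It was 0.578 to 1.38 in RS and 0.792 to 1.18 in DJ, which both overlapped DJ526. Most of this sum is Fabp4, which read 0.52 to 1.80 over the 12 arrays. Adipoq, Plin1 and Lep reached at most -2.88, -4.12 and -4.64. Of the 4, Lep and Fabp4 were well above background on all 12 arrays, Plin1 on 10 and Adipoq on 7, and none passed the test. Their part in the Igfbp2 result was not tested.

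Whether resveratrol shifted Igfbp2 differently on the 2 carbohydrate backgrounds was asked with the difference between DJ526 minus DJ and RS minus Ctrl. For Igfbp2 it was 0.62 (95% interval 0.11 to 1.13, unadjusted limma p 0.0222, adjusted p 0.732), the only 1 of the 16 probes at that unadjusted threshold, where 6.09% of all probes were. The second Igfbp2 probe did not reach it, at 0.54 (95% interval -0.03 to 1.12, unadjusted limma p 0.0615). On the brighter probe the value was 0.43 without RS 3, and 0.96 with the slide as a block (adjusted p 0.482). None of the 16 passed the adjusted test, and 0.00% of all probes did.

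Igfbp1 encodes another secreted binding protein of insulin-like growth factors, whose liver transcript is known to rise in fasting and to be repressed by insulin through FOXO1. It was the most variable of the 9 genes between mice of the same diet. Its levels were 5.33, 7.53 and 6.93 in Ctrl, 5.86, 6.74 and 6.08 in RS, 6.29, 7.28 and 7.19 in DJ, and 6.48, 6.38 and 5.57 in DJ526. The 2 outer Ctrl mice span the levels of all 9 others, so every group overlapped every other. Its SD within groups, pooled over the 4 diets, was 0.716, larger than that of 97.2% of the 27285 probes well above background on all arrays.

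No diet shifted Igfbp1 beyond this spread. RS differed from Ctrl by -0.37, DJ by 0.32 and DJ526 by -0.45, each with an SE of 0.501, and the adjusted p was 0.996, 1.00 and 0.780. The 95% interval for DJ526 ran from -1.55 to 0.65, so neither a fall nor a small rise could be told from no difference with 3 mice per group. A single Ctrl mouse decided each sign: without Ctrl 1 the 3 differences were -0.998, -0.31 and -1.08, and without Ctrl 2 they were 0.10, 0.79 and 0.02. They were -1.24, -0.31 and -1.17 with the slide as a block.

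Irs1 and Irs2 are the docking proteins that link the receptor to phosphoinositide 3-kinase. Irs2 levels were 2.07, 2.06 and 2.28 in Ctrl, 1.77, 2.15 and 1.74 in RS, 2.44, 1.98 and 2.22 in DJ, and 2.75, 2.07 and 2.14 in DJ526. DJ526 1 stood highest and RS 1 and RS 3 lowest, and the groups overlapped. RS differed from Ctrl by -0.25, DJ by 0.07 and DJ526 by 0.18, with an SE of 0.186, and the last was -0.03 without DJ526 1. DJ526 was 0.43 above RS (95% interval 0.02 to 0.84, unadjusted limma p 0.0397, adjusted p 0.875), the only 1 of the 16 probes at that threshold in a comparison where 5.50% of all probes reached it (2.35% in the higher direction) and 0.00761% passed the adjusted test. Within the third slide DJ526 lay 0.58 above RS 3, and without DJ526 1 the difference over all mice was 0.22. With the slide as a block the RS difference from Ctrl turned to 0.17, that of DJ was 0.31 and that of DJ526 was 0.75, with none called.

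Irs1 varied more among mice on the other diets than in Ctrl. Its levels were 1.15, 1.22 and 1.11 in Ctrl (SD 0.0568), 1.08, 1.66 and 1.26 in RS (SD 0.300), 1.47, 1.28 and 0.78 in DJ (SD 0.355), and 1.86, 1.18 and 1.61 in DJ526 (SD 0.347). The difference in spread was not tested. DJ526 stood highest on average, with a difference from Ctrl of 0.39 (SE 0.209, adjusted p 0.532) that was 0.23 without DJ526 1, and DJ526 2 lay among the Ctrl mice. On the second probe all 3 DJ526 mice lay above Ctrl, at -2.80, -3.35 and -3.01 against -3.46, -3.50 and -3.49. With the slide as a block the DJ526 difference of the brighter probe was 0.94 (adjusted p 0.499).

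Insr encodes the insulin receptor. Its brightest probe read 0.38, -0.07 and 0.26 in Ctrl, -0.02, 0.21 and 0.22 in RS, 0.13, 0.03 and -0.01 in DJ, and 0.29, 0.37 and 0.32 in DJ526. The 3 DJ526 mice lay above all DJ and all RS mice and overlapped Ctrl. DJ526 was 0.28 above DJ (SE 0.113, unadjusted limma p 0.0323, adjusted p 0.477) and 0.14 above Ctrl (adjusted p 0.680), and with the slide as a block the first of these was 0.19. The difference from Ctrl rested on single Ctrl mice, at 0.01 without Ctrl 2 and 0.24 without Ctrl 1. The second probe was above Ctrl in all 3 DJ526 mice, by 0.24 (adjusted p 0.450), and the third by 0.12 with overlap, which was 0.01 without Ctrl 2 and 0.01 with the slide as a block. The 3 probes gave the same sign for DJ526 against Ctrl, against DJ and against RS.

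Pik3r1, the regulatory subunit of phosphoinositide 3-kinase, and Akt2, the main AKT kinase of insulin action in the liver, were the steadiest of the 9. Pik3r1 read -0.46, -0.43 and -0.58 in Ctrl, -0.58, -0.41 and -0.42 in RS, -0.46, -0.51 and -0.55 in DJ, and -0.58, -0.57 and -0.27 in DJ526. Its differences from Ctrl lay between -0.02 and 0.02, and their 95% intervals reached down to -0.23 and up to 0.24. Akt2 read 3.48, 3.53 and 3.50 in Ctrl, 3.40, 3.53 and 3.55 in RS, 3.47, 3.46 and 3.53 in DJ, and 3.50, 3.43 and 3.63 in DJ526. Its differences from Ctrl were -0.01, -0.01 and 0.02 with an SE of 0.0667 (-0.06, -0.03 and -0.09 with the slide as a block). Without the block the interval for DJ526 ran from -0.13 to 0.17, so a change of the size seen in Igfbp2 without the block lies outside it. With the block the interval was wider, from -0.45 to 0.27. The other 2 Akt2 probes differed from Ctrl by at most 0.10 in size without the block, in DJ. With it they were at -0.15 and -0.21 in DJ526.

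Foxo1 and Foxo3 encode the forkhead factors that AKT holds in check. Foxo1 read 2.58, 2.58 and 2.70 in Ctrl, 2.25, 2.96 and 2.86 in RS, 2.50, 2.76 and 2.77 in DJ, and 2.93, 2.87 and 3.12 in DJ526. All 3 DJ526 mice lay above all Ctrl and all DJ mice, while RS spread on both sides of Ctrl with RS 1 the lowest of the 12. The difference between DJ526 and Ctrl was 0.36 (SE 0.160, 1.28-fold, adjusted p 0.459) and that between DJ526 and DJ was 0.30 (adjusted p 0.569). With the slide as a block they turned to -0.16 and -0.05, where the medians of all probes were -0.12 and -0.10. Without RS 1 the RS difference from Ctrl rose from 0.07 to 0.29, while with the block it was -0.27. Within the third slide DJ526 lay 0.11 above RS 3. On the second probe the DJ526 mice read 2.19, 2.05 and 2.35, above Ctrl at 1.93, 1.87 and 1.96 but overlapping DJ at 1.83, 2.06 and 2.09. Its difference between DJ526 and Ctrl was 0.27, or -0.34 with the block. Within the third slide DJ526 differed from RS 3 by -0.06 on this probe.

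Foxo3 had a dim probe, with a signal of 30.4 to 60.4 before scaling. It read -4.63, -5.14 and -4.64 in Ctrl, -4.59, -4.66 and -4.20 in RS, -4.73, -4.84 and -4.68 in DJ, and -4.59, -4.23 and -4.13 in DJ526. The 3 DJ526 mice lay above all Ctrl and all DJ mice, DJ526 1 only narrowly above Ctrl 1, and RS 3 lay with the higher DJ526 mice. The difference between DJ526 and Ctrl was 0.49 (SE 0.207, adjusted p 0.438), and it was 0.32 without Ctrl 2 and 0.09 with the slide as a block. Within the third slide DJ526 lay 0.12 below RS 3, and RS 3 lay 0.43 above RS 1 and 2 of the second slide. With RS and DJ526 averaged against Ctrl and DJ, Foxo3 was 0.38 higher (unadjusted limma p 0.0266, adjusted p 0.449), the only 1 of the 16 probes at that threshold, which 10.1% of all probes reached (6.70% in the higher direction) and 0.00% passed after adjustment. This difference was 0.11 with the slide as a block.

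**Figure D2:**
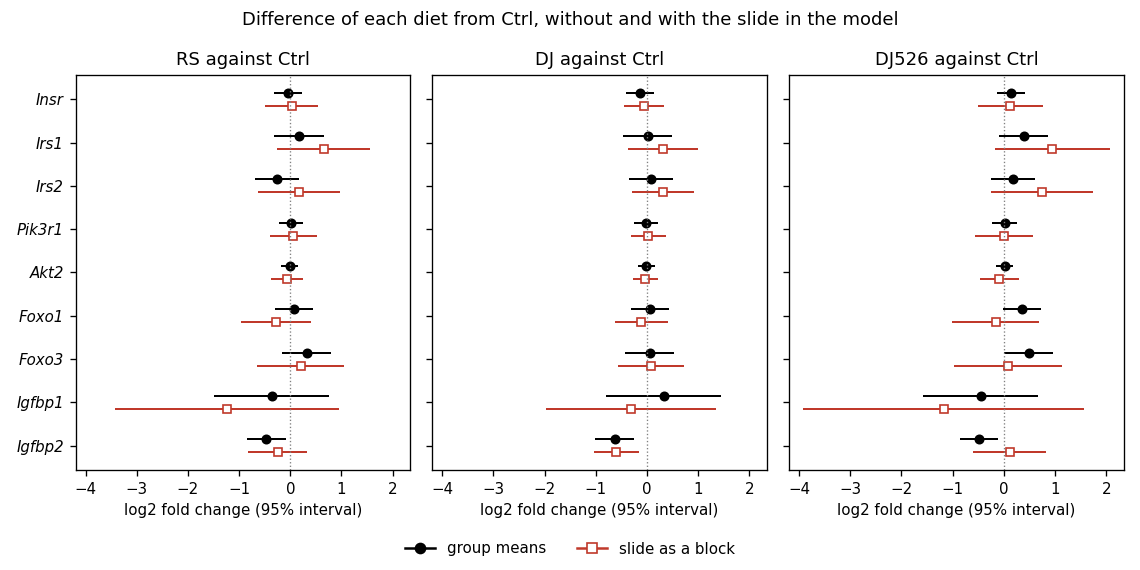
Log2 fold change of each gene (horizontal axis) in RS, DJ and DJ526 against Ctrl for the brightest probe of each of the 9 genes (vertical axis), with 95% intervals. Filled points are differences between group means and open squares the same with the slide as a block. Igfbp2 lies left of 0 in all 3 diets without the block, and with it only the DJ interval stays clear of 0, while the DJ526 point moves to 0.11.

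Groups that did not overlap were read against the same count over all probes. Against Ctrl, 2 of the 16 probes lay lower without overlap in RS (3.98% of all probes), 2 in DJ (4.86%) and 2 in DJ526 (8.07%), all of Igfbp2. None lay higher in RS (6.24%) or DJ (4.48%), and 5 lay higher in DJ526 (12.5%), which were 1 probe of Insr, 1 of Irs1, both of Foxo1 and that of Foxo3. DJ526 lay above DJ without overlap for 4 of the 16 (12.1%), which were 2 of Insr, 1 of Foxo1 and Foxo3, and below it for 0 (6.29%). It lay above RS for 2 of Insr (4.98%) and below it for 0 (6.15%). In DJ526 against DJ 1 probe, that of Insr, had an unadjusted limma p under 0.05 (9.81% of all probes, 5.62% in the higher direction), and none passed the adjusted test (0.0101%). The methods' t-test had 2 at the unadjusted threshold, for which the share of all probes is not given.

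Rice against starch and sucrose, that is DJ and DJ526 against Ctrl and RS, gave 0 of the 16 probes after adjustment (0.00% of all probes) and the 2 of Igfbp2 at an unadjusted limma p under 0.05 (4.57%, or 2.57% in the lower direction). The Igfbp2 difference on rice was -0.32 (SE 0.116, adjusted p 0.975), and it was -0.24 without DJ 3, -0.41 without RS 3 and -0.12 with the slide as a block. Irs2 was 0.25 higher on rice (adjusted p 0.975), 0.15 higher without DJ526 1 and 0.44 higher with the block (adjusted p 0.421). Foxo1 was 0.17 higher on rice and -0.00069 with the block.

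Probes of the same gene were set against each other over the 12 mice to see which differences belonged to the transcript rather than to 1 probe. The 2 probes of Igfbp2 had a Pearson r of 0.982 and a Spearman rho of 0.986. Those of Irs1 had 0.977 and 0.951 and those of Foxo1 0.969 and 0.944, so the mouse-to-mouse spread of these 3 genes was shared by both probes. Each r had a permutation p of 1e-05, the smallest that 100000 permutations can give (3e-05 after adjustment over the 9 pairs), and the permutation p of the 3 rho lay between 1e-05 and 5e-05 (at most 0.00015 after adjustment). Without the 2 mice farthest from the median the r were 0.966, 0.964 and 0.932, and with each slide centred 0.977, 0.973 and 0.958. The 3 pairs of Insr had r of 0.587 to 0.675 and rho of 0.629 to 0.713, with adjusted permutation p of 0.0310 to 0.0573 for r and 0.0216 to 0.0414 for rho, and r of 0.409 to 0.563 without the farthest mice. The 3 pairs of Akt2, whose levels hardly moved, had r of 0.409 to 0.727 and rho of 0.343 to 0.790, with adjusted permutation p of 0.0181 to 0.186 and 0.00790 to 0.277, and r of 0.296 to 0.894 without the farthest mice. Both probes were read from the same labelled RNA on the same array, so their agreement covers the probe and not the mouse or the slide.

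**Figure D3:**
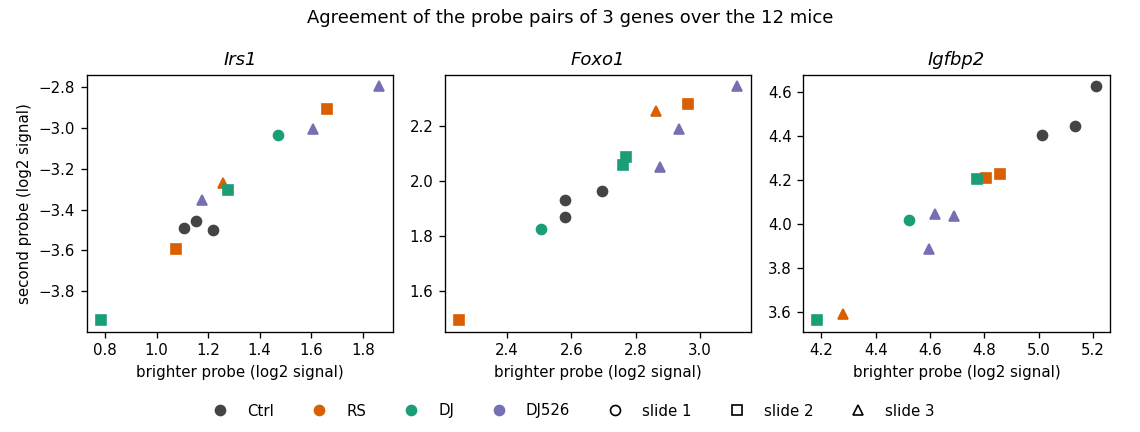
Log2 signal of the second probe (vertical axis) against the brighter probe (horizontal axis) of Irs1, Foxo1 and Igfbp2 in the 12 mice, with colour for the diet and marker for the slide. Points fall close to a line in each panel (r of 0.977, 0.969 and 0.982), and the 3 Ctrl mice form the upper right end for Igfbp2.

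The 9 genes were then compared with each other over the 12 mice, in 36 pairs. Pearson r ran from -0.65 to 0.77, and 5 pairs had an unadjusted permutation p under 0.05 while none passed after adjustment over the 36 (lowest adjusted p 0.151 for r and 0.263 for rho, 100000 permutations). Akt2 and Pik3r1 had the highest r at 0.77 (permutation p 0.00419, rho 0.66 with permutation p 0.0213), and it was 0.46 without RS 1 and DJ526 3, so it rests in part on those mice, and 0.76 with each slide centred. Foxo3 and Igfbp1 had the lowest at -0.65 (permutation p 0.0200, rho -0.71 with permutation p 0.0118), which was -0.37 without the 2 farthest mice and -0.69 with each slide centred. Irs2 and Igfbp1, both textbook FOXO1 targets, had an r of 0.16 (permutation p 0.630, rho 0.12 with permutation p 0.715, adjusted 0.802 and 0.940), and it was 0.14 without the 2 farthest mice.

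**Figure D4:**
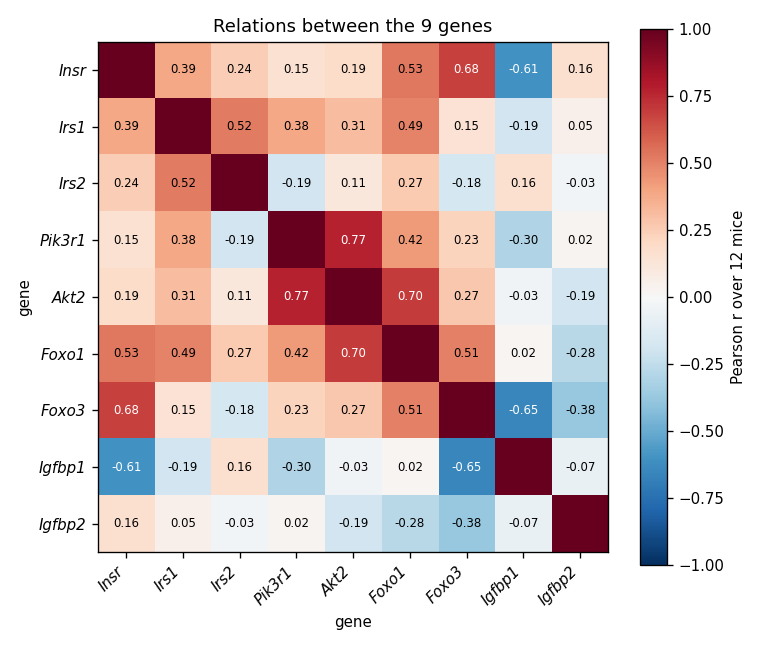
Pearson r over the 12 mice for each pair of the 9 genes (both axes), by colour from -1 to 1 with the value printed in the cell. The highest is 0.77 for Akt2 and Pik3r1 and the lowest -0.65 for Foxo3 and Igfbp1, and no pair passed after adjustment over the 36.

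The genes whose pattern over the 12 arrays was most like that of 4 members were read by Pearson r among 15577 genes well above background on every array, as a description with no test, since the points share slides and the highest of many values is large in any case. For Igfbp1 they were Irgq (0.964), Tnk2 (0.906), Arl4d (0.901), Arrdc2 (0.889) and Cdkn1a (0.881), and Cdkn1a, a cell cycle inhibitor, spanned 4.07 log2 units over the mice where Igfbp1 spanned 2.20. For Igfbp2 they were Dnajc25 (0.913), Il17rb (0.898), Chordc1 (0.886), Armc1 (0.882) and Mgll (0.882). For Irs2 they were Ighmbp2 (0.910), Haus4 (0.884), Zbtb40 (0.859), Cdkn1b (0.853), itself on the list of FOXO targets below, and Igip (0.846). For Foxo1 they were Ralgapa2 (0.935), Rbms1 (0.910), Gm826 (0.900), Tmem68 (0.899) and Dlgap1 (0.896). None of the 4 lists held another of the 9 genes.

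The other genes of the pathway, in 6 lists of 84 genes of which 83 had a probe, gave the setting for the 9. None passed the adjusted limma test in any of the 8 comparisons, without or with the slide as a block. At an unadjusted limma p under 0.05 there were 7 of 83 in RS against Ctrl (3 higher and 4 lower), 8 in DJ (4 and 4) and 9 in DJ526 (7 and 2), or 8.43%, 9.64% and 10.8%, beside 6.00%, 5.22% and 10.8% of all probes. The block put 10, 6 and 13 of the 83 at that threshold, and the share of all probes under the block is not given beside these counts.

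The 25 other signalling genes cover the route from the receptor to AKT, mTOR and GSK3. Regulators of mTOR and further forkhead factors are among them. Of the 25, 1, 3 and 0 reached that threshold in RS, DJ and DJ526. The median differences from Ctrl were -0.03, -0.05 and 0.04, where the medians of all probes were 0.03, -0.02 and 0.02. Igf1r, the receptor of insulin-like growth factor 1, read -2.25 to -2.05 in Ctrl and lay above all 3 of these mice in DJ526, at up to -1.76, with a difference of 0.26 (SE 0.127, adjusted p 0.498), or 0.70 with the slide as a block.

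Among 14 inhibitors of the pathway, 2, 2 and 3 reached it and the medians were 0.05, 0.06 and 0.19. Ptpn1, a phosphatase of the insulin receptor, differed from Ctrl by -0.03, -0.22 and -0.20 in RS, DJ and DJ526, and the adaptors Grb10 and Grb14 by 0.05, 0.17 and 0.16 and by -0.14, 0.17 and -0.09. Under the block Ptpn1 turned in RS and DJ526, at 0.22, -0.09 and 0.20, Grb10 was at 0.67, 0.56 and 0.85, and Grb14 turned in DJ, at -0.50, -0.10 and -0.36. Socs3, a feedback inhibitor of cytokine and insulin signalling, differed by 0.14, 0.08 and 0.25, and by 0.73, 0.47 and 0.85 with the block. Trib3, a pseudokinase that binds AKT, spread widely, with 1.05, -0.47 and -0.37 in Ctrl and 0.29, 0.69 and 2.07 in DJ (difference 0.95, adjusted p 0.958, and 0.22 with the block). Inppl1, a lipid phosphatase that opposes phosphoinositide 3-kinase and is named here after its values were seen, was 0.57 higher in DJ526 than in DJ (adjusted p 0.252) and 0.60 higher than in RS (adjusted p 0.345), and 0.98 and 0.77 with the slide as a block. From Ctrl it differed by -0.43, -0.40 and 0.17 in RS, DJ and DJ526 (adjusted p 0.686, 0.895 and 0.693). With the block these were 0.16, -0.06 and 0.93.

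Among 21 FOXO targets, 2 reached the threshold in each of RS, DJ and DJ526, and the medians lay at 0.01, 0.03 and 0.04. G6pc, which releases glucose from the hepatocyte, read 5.56, 5.81 and 5.96 in Ctrl, 5.42, 6.21 and 5.13 in RS, 5.90, 5.96 and 5.79 in DJ, and 6.03, 5.55 and 5.29 in DJ526, with full overlap and differences from Ctrl of -0.19, 0.10 and -0.16, of which those of RS and DJ526 turned to 0.07 and 0.56 with the slide as a block. Pck1, the rate-setting enzyme of gluconeogenesis, was 0.22 above Ctrl in DJ526 (adjusted p 0.548), at 7.31, 7.41 and 7.56 against 7.31, 7.03 and 7.28, the lowest DJ526 mouse just above the highest Ctrl mouse, and 0.08 above with the block. Ppargc1a, a coactivator of FOXO1, differed from Ctrl by -0.20, 0.31 and 0.34, and Pdk4, an inhibitor of glucose oxidation, by -0.30, -0.09 and -0.07. With the block Ppargc1a was at -0.94, -0.03 and -0.87, so DJ and DJ526 turned, and Pdk4 at -0.13, -0.16 and 0.64. Sesn3, a FOXO-induced stress gene named here after its values were seen, was 0.33, 0.44 and 0.31 above Ctrl (adjusted p 0.695, 0.750 and 0.387), and 0.56, 0.62 and 0.45 with the slide as a block.

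The 13 insulin-induced genes, many of them enzymes of fat synthesis, had the lowest medians of the lists, at -0.21 in RS, -0.37 in DJ and -0.26 in DJ526, with 4, 2 and 5 of the 13 above 0. The block took the medians to -0.95, -0.51 and -1.51, where those of all probes were -0.0089, -0.02 and -0.12. Each of these blocked medians rests on DJ 1, which alone links Ctrl to the other slides. That of DJ526 rests on RS 3 as well. Without the block none of the 13 genes reached even an unadjusted limma p under 0.05, and with it Srebf1 alone did, in DJ526. All 3 medians also rest on the same Ctrl mice. Srebf1, the transcription factor of fat synthesis, read 1.96, 2.13 and 1.94 in Ctrl and 1.15, 1.71 and 1.83 in DJ526, with a difference of -0.44 (SE 0.271, adjusted p 0.580) and no overlap, or -1.48 with the block (unadjusted limma p 0.0333, adjusted p 0.382).

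In the axis of insulin-like growth factors, to which Igfbp1 and Igfbp2 belong, 2, 1 and 4 of the 9 other genes reached the unadjusted threshold. Igf1, the liver's main growth factor product, hardly differed, by -0.03, 0.14 and 0.04 (SE 0.0748). Igfals, which holds it in the blood, differed by 0.14, 0.27 and -0.15, and Igfbp4 by 0.15, -0.02 and 0.02. Under the block Igf1 was at -0.16, 0.05 and -0.06, Igfals at -0.10, 0.06 and -0.25, and Igfbp4 at -0.06, -0.17 and -0.17. The 4 in DJ526 were Igfbp3 and Igf2, higher, and Igfbp5 and Igfbp6, lower, all without overlap with Ctrl. Igfbp3 was 0.28 above Ctrl (adjusted p 0.449), and 0.15 with the block. Igfbp5 was -0.62 (adjusted p 0.449) and Igfbp6 -0.77 (adjusted p 0.446), the same sign as Igfbp2, and with the block they were -1.52 and -2.04. Igfbp7 went the other way, at 0.61, 0.45 and 0.55 above Ctrl in RS, DJ and DJ526 (adjusted p 0.802, 0.990 and 0.474). With the block it was at 0.26, 0.17 and 0.34. Igfbp5, Igfbp6 and Igfbp7 were named after their values were seen. Igf2, named after its values were seen, was 0.77, 0.64 and 0.73 above Ctrl without overlap (adjusted p 0.636, 0.904 and 0.313), opposite in sign to Igfbp2, and with the slide as a block 0.48, 0.59 and -0.00068. Of the insulin clearance list Ide alone had a probe, with differences of -0.09, 0.05 and -0.07, and of -0.32, -0.10 and -0.33 with the block.

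**Figure D5:**
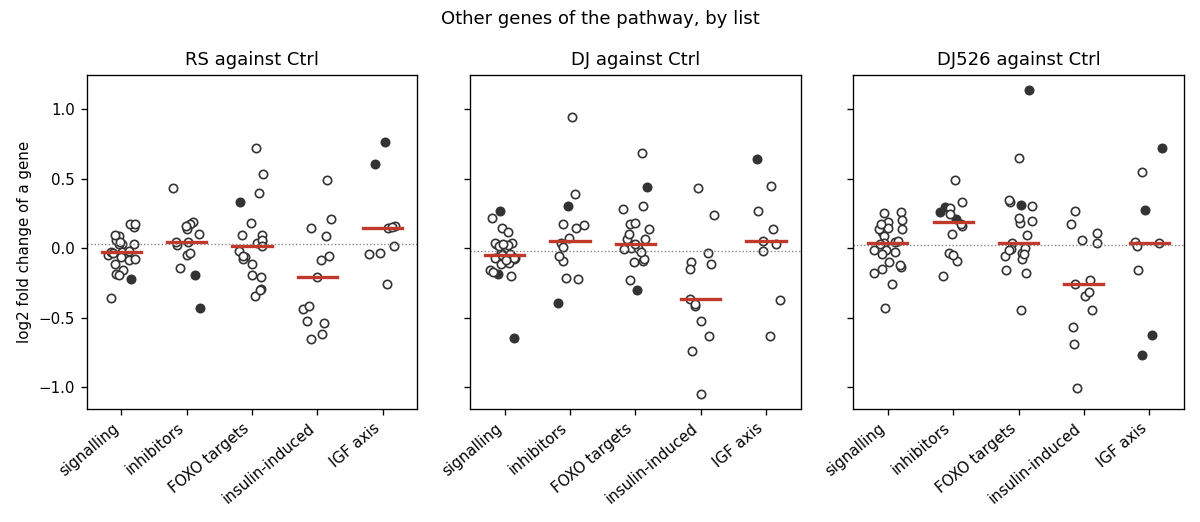
Log2 fold change (vertical axis) of the genes of 5 lists (horizontal axis) in RS, DJ and DJ526 against Ctrl. Each point is a gene, filled where the unadjusted limma p was under 0.05, the red bar is the list's median and the dotted line the median of all probes. The insulin-induced genes have the lowest medians, -0.21, -0.37 and -0.26, and no filled point in this fit without the slide.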

How the data were processed

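Liver RNA of 12 mice was labelled with Cy3 and hybridised to 12 arrays. The authors deposited, per the file headers, the intensity of every spot from Feature Extraction (version 11.5.1.1), background-subtracted and on a linear scale, and a table of globally normalized intensities equal to it times 1 factor per array (0.959 to 1.08). None of the files the authors deposited that were used here was on a log2 scale. Here spots of a probe were averaged without outlier flags (93 to 197 spots per array), put on the log2 scale and scaled to the 75th percentile of each array. Control spots were left out, and 68 probes lacked a value on some array. Depth is read as signal over background, and the number of arrays limits the precision.

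limma (version 3.58.1, R 4.3.3) took the 4 group means with a variance trend (8 residual degrees of freedom), with Benjamini-Hochberg adjustment over all probes, for each diet against Ctrl, for DJ526 against the other 2 diets, and for rice against starch and sucrose, resveratrol against none and the difference between the resveratrol effects. It was tested on simulated data. Relations over mice used 100000 permutations (Python 3.11.15), all two-sided. The alternatives were normexp, median and quantile scaling, the deposited table, a filter on dim probes, no variance trend, slide and replicate number as blocks, only the groups compared, the methods' t-test and Z ratio, the mean over probes and leaving out each array. SAM was not run. All probes of the 9 genes are named, as are a fixed set of pathway genes and any that passed the test; 1 gene of that set is not reported here. The members and lists were chosen with earlier results of these data known.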

Additional observations from a re-analysis of the deposited data

How the results depend on the processing

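Member probes passing the adjusted test stayed at 0 in all 8 comparisons under every limma alternative, with each array left out in turn (0 to 0) and with the replicate block (0 in each). Same-numbered mice did not deviate together (r of -0.27 to 0.26 over 18 pairs, 4 over 0.1), and 5 of 12 correlated best with their own number, so the numbers pair nothing. Without adjustment, the methods' t-test called 2 member probes in DJ against Ctrl, 5 in DJ526 against Ctrl and 2 in DJ526 against DJ. No share of all probes is given beside these counts. The Z ratio criterion called 1 in DJ against Ctrl (1.36% of all probes). The adjusted test called 0 in each. Of 864 recomputed fold changes of the 9 genes, for the diets against Ctrl and DJ526 against DJ, 802 kept their sign, none passed the test (lowest adjusted p 0.116), and 62 changed sign, 4 of these where the value had exceeded its SE. All 4 came with the slide as a block: Irs2 in RS against Ctrl became 0.17, Foxo1 -0.16 and Igfbp2 0.11 in DJ526 against Ctrl, and Foxo1 -0.0458 in DJ526 against DJ. Some alternatives cannot change a fold change, such as the replicate block, no variance trend and leaving out an array of a group not compared. The 802 therefore include unchanged values and are no measure of robustness. Over all 8 comparisons the block turned 7 values that had exceeded their SE, the other 3 being Foxo1 (-0.16) and Igfbp2 (0.23) in resveratrol against none and Foxo1 (-0.00069) in rice against starch and sucrose. The cause was not tested. Among normexp, median and quantile scaling and the deposited table, only normexp moved the median of all probes by over 0.1. It went from 0.04 to -0.07 in DJ526 against DJ and from 0.0057 to -0.09 in the difference between the resveratrol effects. The slide as a block moved it further, to -0.10 in DJ526 against DJ and -0.11 in that difference. In DJ526 against Ctrl the block took it from 0.02 to -0.12. Signal over background limited Foxo3 most.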
